A study of Mus musculus with 16 samples.

Results

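Transforming growth factor beta (TGF-beta) is a secreted cytokine, and 9 mouse genes known to respond to it were followed through 16 RNA sequencing libraries of sorted intestinal tumour cells. The genes were Pmepa1, Itgb6, Il11, Tgfbi, Ltbp2, Angptl4, Bhlhe40, Smurf1 and Tgif1. They were chosen by name with earlier results of these data known, and all 9 were found among the 36528 genes of each deposited file. The 4 groups were AKVPSL GFP+, AKVPSL GFP-, AKVPL GFP+ and AKVPL GFP- cells, with 4 libraries each. AKVPSL and AKVPL are the labels' names for 2 tumour genotypes, whose letters the labels do not spell out. All groups are mouse tumour cells sorted by flow cytometry on GFP, which the study's design pairs with Lgr5, a receptor of intestinal stem cells. The sources used here do not give ages, the promoter of the reporter or other markers of the sort. The titles name the colon for all 16 libraries, whereas the tissue field says small intestine for 15 of them and colon for AKVPSL GFP- replicate 1. No label ties replicates to different animals or tumours, so the p-values reflect only how much these libraries spread, and part of that may be technical.

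Total counts ran from 10.9 M to 41.6 M per library (M, 1e6 counts), with a median of 25.9 M. Levels are given as CPM, counts per 1e6 after TMM scaling. A gene was called higher or lower at an adjusted p under 0.05 in edgeR's quasi-likelihood test with Benjamini-Hochberg adjustment over 18072 genes. Fold changes are log2 ± SE. A list of 18 epithelial genes summed to between 8970 and 12700 CPM in every library, although its member Cdx1, an intestinal homeobox factor, had at most 1 count in a library. The sorted cells also held RNA of other cell types. Summed CPM of 15 fibroblast markers lay between 250 and 1180 in AKVPSL GFP+, 1820 and 3130 in AKVPSL GFP-, 709 and 1360 in AKVPL GFP+ and 4910 and 10500 in AKVPL GFP- libraries. Summed CPM of 14 leukocyte markers lay between 55.4 and 272 in AKVPSL GFP+, 738 and 3100 in AKVPSL GFP-, 417 and 1130 in AKVPL GFP+ and 3970 and 7140 in AKVPL GFP- libraries. Each fibroblast marker had counts in every group, and 1 leukocyte marker had no count in any AKVPSL GFP+ library. In such sorted pools, fewer cells of a type and less RNA per cell cannot be told apart.

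TGF-beta binds a pair of kinase receptors at the cell surface, which phosphorylate SMAD2 and SMAD3. These join SMAD4, enter the nucleus and regulate genes together with other factors, among them genes that damp the pathway. In the intestine the pathway restrains growth of the epithelium and drives matrix production by fibroblasts, and most targets are known to respond in more than 1 cell type.

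Promoter windows from RefSeq on GRCm38.p6, 250 bases before to 50 bases after a transcript start, were matched for 6 of the 9 genes. Pmepa1, Bhlhe40 and Angptl4 had no entry. The windows were searched on both strands for CAGAC, a short sequence known to be bound by SMAD proteins, for GTCTAGAC, the SMAD palindrome, for GGCGC, and for TGANTCA, the AP-1 site. Neither CAGAC nor its complement GTCTG is contained in that palindrome. Of all 32851 windows, 49.6% held CAGAC, 0.213% the palindrome, 36.9% GGCGC and 7.81% TGANTCA. Windows of 3 genes called lower in AKVPSL GFP+ cells and of Tgif1, which was not, are printed 5′ to 3′ so that they can be compared, with CAGAC or its complement and TGANTCA in capitals. They lie at chr2:60722554-60722853 on the minus strand (Itgb6), chr7:4778092-4778391 on the minus strand (Il11), chr13:56609336-56609635 on the plus strand (Tgfbi) and chr17:70853483-70853782 on the minus strand (Tgif1). Itgb6, Il11 and Tgif1 have further starts in the table: for Itgb6 and Tgif1 the first start is shown, and for Il11 the window that holds TGANTCA.
Itgb6: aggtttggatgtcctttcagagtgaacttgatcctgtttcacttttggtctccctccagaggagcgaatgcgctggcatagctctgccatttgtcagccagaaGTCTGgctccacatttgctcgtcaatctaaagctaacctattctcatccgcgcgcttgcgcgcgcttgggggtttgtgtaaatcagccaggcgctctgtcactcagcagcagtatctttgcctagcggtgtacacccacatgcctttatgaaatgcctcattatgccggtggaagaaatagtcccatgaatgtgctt
Il11: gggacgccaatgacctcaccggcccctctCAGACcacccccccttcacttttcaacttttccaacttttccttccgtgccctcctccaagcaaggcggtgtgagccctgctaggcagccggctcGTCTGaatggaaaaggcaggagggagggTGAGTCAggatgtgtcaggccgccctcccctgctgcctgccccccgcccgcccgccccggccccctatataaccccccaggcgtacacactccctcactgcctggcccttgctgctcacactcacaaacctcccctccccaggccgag
Tgfbi: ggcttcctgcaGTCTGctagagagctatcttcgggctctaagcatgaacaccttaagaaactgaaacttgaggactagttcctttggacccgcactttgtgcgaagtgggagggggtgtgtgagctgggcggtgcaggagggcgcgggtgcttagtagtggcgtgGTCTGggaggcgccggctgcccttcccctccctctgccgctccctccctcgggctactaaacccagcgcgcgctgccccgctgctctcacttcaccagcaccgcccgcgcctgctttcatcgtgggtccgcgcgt
Tgif1: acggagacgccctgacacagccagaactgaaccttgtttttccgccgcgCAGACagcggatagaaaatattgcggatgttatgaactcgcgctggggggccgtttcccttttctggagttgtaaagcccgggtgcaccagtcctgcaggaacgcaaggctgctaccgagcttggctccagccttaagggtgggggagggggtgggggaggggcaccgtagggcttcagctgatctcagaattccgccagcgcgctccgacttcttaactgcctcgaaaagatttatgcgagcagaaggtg
Itgb6 and Tgif1 each had 1 match to CAGAC in this window. Il11 and Tgfbi each had 2. Of the 4 windows, that of Il11 alone matched TGANTCA, and it was chosen for that match. The other Il11 window, at chr7:4782808-4783107, had 0 matches to TGANTCA. The Tgfbi window held GGCGC 4 times, that of Itgb6 1 time and the others 0 times, and none of the 4 held GTCTAGAC. A match is a description of the letters and does not show binding, and genes called lower and the gene that was not called both held CAGAC.

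The first comparison set AKVPSL against AKVPL within GFP+ cells. AKVPSL GFP+ cells had less RNA of Pmepa1, Itgb6, Il11 and Tgfbi and more of Bhlhe40 and Smurf1, while Ltbp2, Angptl4 and Tgif1 were not called. Of the 9 genes 4 were thus called lower, against 28.1% of all genes tested, and 2 higher, against 24.9%, or 6 of 9 in either direction against 53.0%. The median log2 fold change was -0.76 over the 9 genes and -0.05 over all genes.

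Pmepa1 (Gene ID 65112, GRCm38 chromosome 2, 173224458 to 173276731) encodes a membrane protein that sequesters receptor-activated SMADs and is known as a feedback inhibitor of the pathway. It stood at 70.1, 77.1, 67.7 and 71.0 CPM in AKVPSL GFP+ replicates 1 to 4, against 261, 262, 279 and 228 CPM in AKVPL GFP+ replicates 1 to 4. The groups did not overlap, which held in either direction for 51.3% of all genes. Pmepa1 was thus 3.61-fold lower in AKVPSL (log2 fold change -1.85 ± 0.12, edgeR adjusted p = 2.90e-10).

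Itgb6 (Gene ID 16420, chromosome 2, 60598292 to 60722603) encodes the beta subunit of integrin alpha-v beta-6, an epithelial integrin that releases TGF-beta from its latent complex. Its level was 22.7, 24.4, 25.3 and 21.8 CPM in AKVPSL GFP+, against 59.7, 53.0, 52.8 and 48.2 CPM in AKVPL GFP+ libraries. Each AKVPSL GFP+ library lay below each AKVPL GFP+ library. Itgb6 was 2.27-fold lower (log2 fold change -1.18 ± 0.09, edgeR adjusted p = 5.59e-09).

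Il11 (Gene ID 16156, chromosome 7, 4772373 to 4782907) encodes interleukin-11, a cytokine that signals through gp130. It rested on few reads, 9 to 14 per AKVPSL GFP+ library against 18 to 107 per AKVPL GFP+ library. The level was 0.273, 0.301, 0.367 and 0.575 CPM in AKVPSL GFP+ and 2.10, 3.31, 2.54 and 0.998 CPM in AKVPL GFP+ libraries. The groups did not overlap, and AKVPL GFP+ replicate 4 was the lowest of its group. Il11 was 6.06-fold lower (log2 fold change -2.60 ± 0.41, edgeR adjusted p = 3.14e-05).

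Tgfbi (Gene ID 21810, chromosome 13, 56609586 to 56639359) encodes a secreted matrix protein named for its induction by TGF-beta. It measured 10.9, 13.2, 19.7 and 24.4 CPM in AKVPSL GFP+ and 23.9, 28.7, 56.1 and 27.6 CPM in AKVPL GFP+ libraries. AKVPSL GFP+ replicate 4 lay above the lowest AKVPL GFP+ library, so the groups overlapped. The log2 fold change of -1.0 ± 0.37 passed the threshold (edgeR adjusted p = 0.0362), but the call ended without AKVPL GFP+ replicate 3 (-0.65), AKVPSL GFP+ replicate 1 (-0.87) or AKVPSL GFP+ replicate 2 (-0.93), or with no low-count filter (-0.99).

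Ltbp2 (Gene ID 16997, chromosome 12, 84783212 to 84876558), a matrix protein of the fibrillin family, ranged from 3.17 to 23.4 CPM in AKVPSL GFP+ and from 7.93 to 13.7 CPM in AKVPL GFP+ libraries. The AKVPSL range enclosed the AKVPL range. The log2 fold change was 0.06 ± 0.48 (edgeR adjusted p = 0.928) and it was -0.61 without AKVPSL GFP+ replicate 4. Angptl4 (Gene ID 57875, chromosome 17, 33774900 to 33781575), a secreted inhibitor of lipoprotein lipase, stood at 0.818, 1.91, 1.93 and 4.36 CPM in AKVPSL GFP+ and 3.28, 3.00, 5.59 and 3.05 CPM in AKVPL GFP+ libraries. Only AKVPSL GFP+ replicate 4 reached into the AKVPL range. The log2 fold change of -0.76 ± 0.38 was not called (edgeR adjusted p = 0.106), whereas without that library it was -1.31 and passed (edgeR adjusted p = 0.00325).

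Bhlhe40 (Gene ID 20893, chromosome 6, 108660629 to 108666925) encodes a basic helix-loop-helix transcription repressor that also responds to hypoxia and the circadian clock. It was at 432, 400, 497 and 492 CPM in AKVPSL GFP+, against 336, 309, 330 and 287 CPM in AKVPL GFP+ libraries. All 4 AKVPSL libraries were above all 4 AKVPL libraries, with a log2 fold change of 0.53 ± 0.11 (edgeR adjusted p = 4.75e-04). Smurf1 (Gene ID 75788, chromosome 5, 144876495 to 144965899), a ubiquitin ligase that targets SMADs and receptors of the pathway, was at 186, 165, 232 and 192 CPM in AKVPSL GFP+ and 136, 153, 148 and 133 CPM in AKVPL GFP+ libraries. These groups did not overlap either, and the log2 fold change was 0.44 ± 0.13 (edgeR adjusted p = 0.00618). Tgif1 (Gene ID 21815, chromosome 17, 70844205 to 70853532), a homeodomain corepressor that binds SMAD2, ranged from 297 to 357 CPM in AKVPSL GFP+ and from 297 to 383 CPM in AKVPL GFP+ libraries. Its log2 fold change was -0.09 ± 0.12 (edgeR adjusted p = 0.562).

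**Figure D1:**
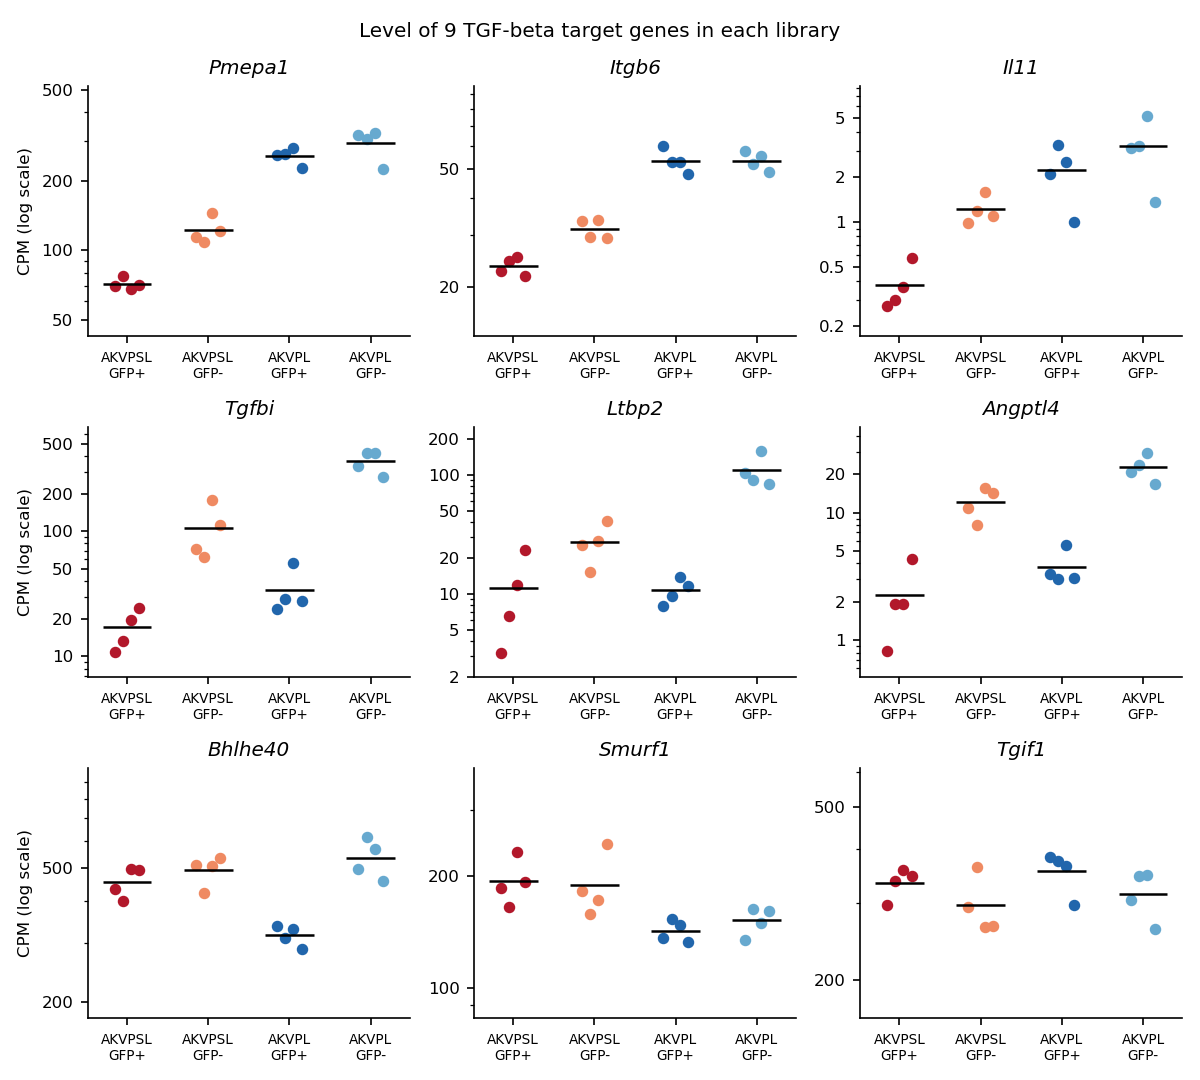
CPM of each of the 9 genes (log axis) in the 16 libraries, by group. Points are libraries and black lines are means of 4. Pmepa1 and Itgb6 lie lower in both AKVPSL groups than in both AKVPL groups, whereas Tgfbi, Ltbp2 and Angptl4 lie lower in GFP+ than in GFP- cells of each genotype, with overlap for Ltbp2 in AKVPSL.

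Marker levels moved with this comparison. The mean summed level of the fibroblast markers was 1.63-fold lower in AKVPSL GFP+ than in AKVPL GFP+ cells and that of the leukocyte markers 4.23-fold lower. Of the fibroblast markers 3 of 15 were called lower, and of the 13 leukocyte markers that passed the filter 11 were. Fbln1 averaged 4.73 CPM in AKVPSL GFP+ and 96.2 CPM in AKVPL GFP+ cells, and Pdgfra 3.01 and 29.2 CPM. In AKVPL GFP- cells these 2 averaged 95.1 and 33.8 CPM, close to their AKVPL GFP+ means. Of the 15 fibroblast markers, 12 were called lower in AKVPL GFP+ than in AKVPL GFP- cells. The 7 smooth muscle markers summed to between 10.3 and 48.2 CPM in AKVPSL GFP+ and between 156 and 203 CPM in AKVPL GFP+ libraries. This was 6.87-fold lower in the mean, with 2 of 7 called lower. Most of that difference was Myl9, which averaged 1.26 CPM in AKVPSL GFP+ and 145 CPM in AKVPL GFP+ cells. The list's median log2 fold change was -0.71. The 10 endothelial markers went the other way in sum, with 161 to 199 CPM in AKVPSL GFP+ against 96.8 to 138 CPM in AKVPL GFP+ libraries. This sum was 1.56-fold higher, with 3 markers called higher and 2 lower. From AKVPL to AKVPSL, mean CPM rose for Vwf (20.6 to 97.1), Esam (22.9 to 46.7) and Egfl7 (12.3 to 20.5). Means of Pecam1, Cdh5, Kdr, Tek, Tie1, Emcn and Plvap were lower in AKVPSL, and the list's median log2 fold change was -0.89. The summed epithelial markers lay between 10700 and 11100 CPM in AKVPSL GFP+ and between 11000 and 12500 CPM in AKVPL GFP+ libraries. Without AKVPL GFP+ replicate 3 and AKVPSL GFP+ replicate 4, the libraries with the highest fibroblast sums of their groups, Pmepa1, Itgb6 and Il11 had log2 fold changes of -1.83, -1.18 and -2.81, and all 3 stayed past the threshold. In that fit Tgfbi was at -0.90 (edgeR adjusted p = 0.05, just under the threshold before rounding), Angptl4 passed at -1.04, and 5 of the 9 genes were called lower. The fibroblast sums that remained were 250, 607 and 505 CPM in AKVPSL GFP+ and 709, 850 and 1230 CPM in AKVPL GFP+ libraries. The fit thus kept a marker difference between the genotypes and cannot show what part fibroblast RNA had, which was not tested.

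The second comparison set AKVPSL against AKVPL within GFP- cells. There 6 of the 9 genes were called lower in AKVPSL, against 30.7% of all genes, and 1 higher, against 32.0%, or 7 of 9 in either direction against 62.7%. Pmepa1, Itgb6, Il11, Tgfbi, Ltbp2 and Angptl4 were lower and Smurf1 was higher. The median log2 fold change was -0.90 over the 9 genes and 0.00 over all genes.

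Pmepa1 was at 115, 109, 146 and 121 CPM in AKVPSL GFP- replicates 1 to 4, against 317, 306, 325 and 227 CPM in AKVPL GFP- replicates 1 to 4. Itgb6 was at 33.3, 29.5, 33.6 and 29.2 CPM in AKVPSL GFP- and at 57.5, 52.0, 55.6 and 48.8 CPM in AKVPL GFP- libraries. For both genes every AKVPSL library lay below every AKVPL library, and groups were apart in this way, in either direction, for 53.2% of all genes. The log2 fold changes were -1.26 ± 0.12 for Pmepa1 (edgeR adjusted p = 3.85e-08) and -0.77 ± 0.09 for Itgb6 (edgeR adjusted p = 1.24e-06). Il11 was at 0.983, 1.19, 1.6 and 1.09 CPM in AKVPSL GFP- and 3.15, 3.24, 5.12 and 1.36 CPM in AKVPL GFP- libraries. AKVPSL GFP- replicate 3 was above AKVPL GFP- replicate 4, so the groups overlapped, and the log2 fold change was -1.43 ± 0.37 (edgeR adjusted p = 0.00265).

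The matrix and secreted genes also differed between the genotypes in GFP- cells. Tgfbi was at 72.2, 62.3, 178 and 112 CPM in AKVPSL GFP-, against 331, 426, 422 and 270 CPM in AKVPL GFP- libraries. Ltbp2 was at 25.5, 15.3, 28.0 and 40.8 CPM in AKVPSL GFP-, against 103, 91.2, 158 and 84.0 CPM in AKVPL GFP- libraries. Neither gene's groups overlapped, with AKVPSL GFP- replicate 3 the highest of its group for Tgfbi and AKVPSL GFP- replicate 4 for Ltbp2. The log2 fold changes were -1.78 ± 0.37 for Tgfbi (3.42-fold lower, edgeR adjusted p = 8.41e-04) and -1.99 ± 0.47 for Ltbp2 (3.97-fold lower, edgeR adjusted p = 0.0023). Angptl4 was at 10.9, 8.02, 15.6 and 14.4 CPM in AKVPSL GFP-, against 20.8, 23.8, 29.4 and 16.9 CPM in AKVPL GFP- libraries. Its groups did not overlap, and the log2 fold change was -0.90 ± 0.35 (1.86-fold lower, edgeR adjusted p = 0.0342). That call ended with no low-count filter and when AKVPSL GFP- replicate 1 (-0.86), AKVPSL GFP- replicate 2 (-0.74), AKVPL GFP- replicate 2 (-0.88) or AKVPL GFP- replicate 3 (-0.75) was left out.

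Beside these values, the mean summed fibroblast markers were 3.06-fold lower in AKVPSL GFP- than in AKVPL GFP- cells, with 12 of 15 called lower and no fibroblast marker at 0 in either group. The leukocyte markers were 3.59-fold lower in sum, with 8 of 13 called lower. The smooth muscle markers were 3.25-fold lower, with all 7 called lower, and the endothelial markers 1.76-fold lower, with 3 of 10 called lower and 1 higher. The part of these cell types in the lower levels of the 6 genes was not tested. Libraries scaled on the epithelial genes alone, here called epithelial scaling, moved the median of all genes by -0.45 in this comparison. With TMM these scaling genes themselves differed between the groups. Of 17 tested, 11 were called higher and 1 lower in AKVPSL GFP- cells, and the epithelial sum was 1.27-fold higher.

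Among the regulators, Bhlhe40 was at 509, 422, 506 and 533 CPM in AKVPSL GFP- and 495, 617, 569 and 457 CPM in AKVPL GFP- libraries, with overlapping groups and a log2 fold change of -0.12 ± 0.11 (edgeR adjusted p = 0.355). Smurf1 was at 182, 158, 172 and 243 CPM in AKVPSL GFP- and 135, 163, 150 and 161 CPM in AKVPL GFP- libraries. Those groups overlapped, and AKVPSL GFP- replicate 4 was well above the others. The log2 fold change of 0.31 ± 0.13 was called (edgeR adjusted p = 0.0394), but it was 0.16 and not called without that library. The call also ended without AKVPSL GFP- replicate 1 (0.31), AKVPL GFP- replicate 1 (0.24) or AKVPL GFP- replicate 3 (0.30), and under every change of scaling, filter, test or fit that was run except the replicate block, with -0.14 under epithelial scaling. Tgif1 ranged from 265 to 364 CPM in AKVPSL GFP- and from 262 to 348 CPM in AKVPL GFP- libraries, with a log2 fold change of -0.08 ± 0.12 (edgeR adjusted p = 0.554). With epithelial scaling Bhlhe40 and Tgif1 were called lower, at -0.57 and -0.53, which made 8 of the 9 genes lower against 51.1% of all genes.

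**Figure D2:**
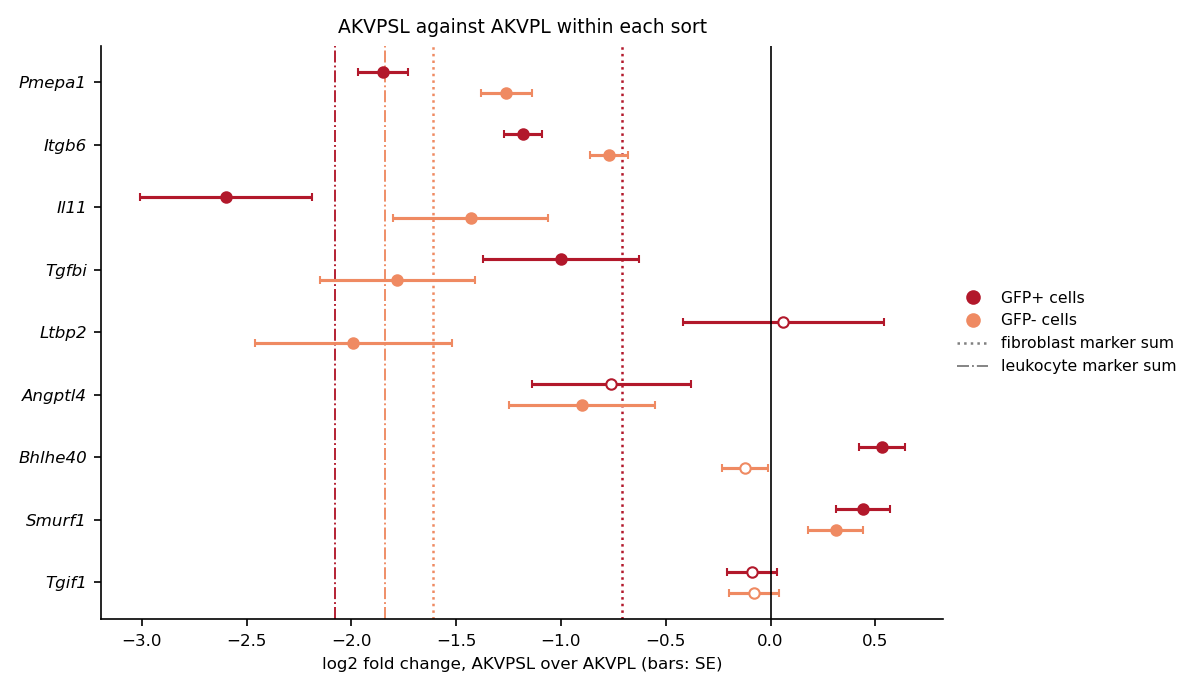
Log2 fold change of AKVPSL over AKVPL for each of the 9 genes, in GFP+ and GFP- cells, with SE bars. Filled points passed the threshold and open points did not. Dotted lines mark the log2 ratio of the mean summed fibroblast markers, -0.71 in GFP+ and -1.61 in GFP- cells, and dash-dotted lines that of the leukocyte markers, -2.08 and -1.84. In GFP+ cells Pmepa1, Itgb6, Il11, Tgfbi and Angptl4 lie left of the fibroblast line and Il11 alone left of the leukocyte line, and in GFP- cells Tgfbi and Ltbp2 lie left of the fibroblast line and Ltbp2 alone left of the leukocyte line.

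The remaining comparisons between groups set GFP+ against GFP- cells within a genotype. In AKVPSL 6 of the 9 genes were called lower in GFP+ cells, against 24.6% of all genes, and 0 higher, against 22.4%. In AKVPL 4 were called lower, against 16.5%, and 0 higher, against 22.6%. Calls in either direction made up 47.0% of all genes in AKVPSL and 39.1% in AKVPL. The AKVPL shares depended on the scaling. With DESeq2 size factors 18.7% of all genes were lower and 13.6% higher there, and with library totals 18.1% and 14.8%. The counts of the 9 genes in AKVPL stayed at 4 lower and 0 higher under both. None of the 9 was higher at an unadjusted p under 0.05 in edgeR or by DESeq2's Wald test in either genotype. The median log2 fold change over the 9 genes was -0.78 in AKVPSL and -0.53 in AKVPL, beside -0.01 and 0.14 over all genes.

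Tgfbi, Ltbp2 and Angptl4 were called lower in GFP+ cells of both genotypes. Tgfbi averaged 17.1 ± 6.17 CPM in AKVPSL GFP+ and 106 ± 52.3 CPM in AKVPSL GFP- cells (SD, n = 4 each), and 34.1 ± 14.8 CPM in AKVPL GFP+ and 362 ± 75.6 CPM in AKVPL GFP- cells. This was 6.23-fold lower in AKVPSL (log2 -2.64 ± 0.39, edgeR adjusted p = 1.25e-04) and 10.6-fold lower in AKVPL (-3.41 ± 0.39, edgeR adjusted p = 1.98e-05). The highest GFP+ library was below the lowest GFP- library in each genotype, which held for 39.1% of all genes in either direction in AKVPSL and 41.2% in AKVPL.

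Angptl4 averaged 2.25 ± 1.5 CPM in AKVPSL GFP+ and 12.2 ± 3.46 CPM in AKVPSL GFP- cells, and 3.73 ± 1.25 CPM in AKVPL GFP+ and 22.8 ± 5.27 CPM in AKVPL GFP- cells. Its groups did not overlap in either genotype, and the folds were close, 5.55-fold lower in AKVPSL (-2.47 ± 0.38, edgeR adjusted p = 1.02e-04) and 6.11-fold lower in AKVPL (-2.61 ± 0.37, edgeR adjusted p = 5.67e-05). Ltbp2 averaged 11.2 ± 8.86 CPM in AKVPSL GFP+ and 27.4 ± 10.5 CPM in AKVPSL GFP- cells, and 10.7 ± 2.51 CPM in AKVPL GFP+ and 109 ± 33.5 CPM in AKVPL GFP- cells. Its GFP+ and GFP- libraries overlapped in AKVPSL and were apart in AKVPL. Ltbp2 was 10.2-fold lower in AKVPL (-3.36 ± 0.51, edgeR adjusted p = 1.68e-04) and 2.47-fold lower in AKVPSL (-1.31 ± 0.48, edgeR adjusted p = 0.0377). The AKVPSL call ended when any 1 of 5 libraries was left out, AKVPSL GFP+ replicates 1, 2 and 3 and AKVPSL GFP- replicates 3 and 4 (-1.36 to -1.01), and the value was -1.97 without AKVPSL GFP+ replicate 4. It ended as well with no low-count filter (-1.34, edgeR adjusted p = 0.0625) and with the groups of the comparison fitted alone (-1.30, edgeR adjusted p = 0.0958), and 5 of the 9 genes were then called lower in AKVPSL.

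The fibroblast marker sum was 4.02-fold lower in GFP+ than in GFP- cells of AKVPSL and 7.54-fold lower in AKVPL. The leukocyte sum was 10.3-fold lower in AKVPSL and 8.76-fold lower in AKVPL. The smooth muscle sum was 5.76-fold lower in AKVPSL and 2.73-fold lower in AKVPL, and the endothelial sum 1.64-fold lower in AKVPSL and 4.52-fold lower in AKVPL. The lists' median log2 fold changes ran the other way between the genotypes. They were -2.44 in AKVPSL and -3.45 in AKVPL for smooth muscle, and -2.91 and -2.62 for endothelial markers. Myl9 averaged 145 CPM in AKVPL GFP+ and 140 CPM in AKVPL GFP- cells. Vwf averaged 97.1 CPM in AKVPSL GFP+ and 50.1 CPM in AKVPSL GFP- cells. Of the fibroblast markers 15 of 15 were called lower in AKVPSL and 12 of 15 in AKVPL, and of 13 leukocyte markers 13 in AKVPSL and 12 in AKVPL. Of 7 smooth muscle markers 6 were called lower in each genotype, and of 10 endothelial markers 8 were lower and 1 higher in AKVPSL and 10 lower in AKVPL. The part of these markers in the levels of Tgfbi, Angptl4 and Ltbp2 was not tested. Without the 2 GFP+ libraries with the highest fibroblast sums of their groups, 6 genes in AKVPSL and 4 in AKVPL were called lower. That fit kept all GFP- libraries, whose fibroblast sums lay above those of the GFP+ libraries, so it did not remove the marker difference between the sorts.

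Pmepa1, Itgb6 and Il11 were called lower in GFP+ cells in AKVPSL and were not called in AKVPL. In AKVPSL the log2 fold changes were -0.78 ± 0.12 for Pmepa1 (edgeR adjusted p = 4.47e-05), -0.42 ± 0.09 for Itgb6 (edgeR adjusted p = 0.00147) and -1.70 ± 0.42 for Il11 (edgeR adjusted p = 0.00312). The libraries given above did not overlap between the sorts for any of these 3 genes. In AKVPL the values were -0.19 ± 0.11 for Pmepa1 (edgeR adjusted p = 0.197), 0.00 ± 0.09 for Itgb6 (edgeR adjusted p = 0.991) and -0.53 ± 0.35 for Il11 (edgeR adjusted p = 0.249), and the sorts overlapped. Pmepa1 was called in AKVPL without AKVPL GFP- replicate 4 (-0.29), and with epithelial scaling, where the all-gene median shifted by -0.45, Pmepa1, Itgb6, Il11 and Smurf1 were called lower there (-0.63, -0.45, -0.97 and -0.54). That made 8 of the 9 genes lower in AKVPL, where 40.3% of all genes were called lower under this scaling. With TMM, 8 of the 17 epithelial genes tested were called higher in AKVPL GFP+ than in AKVPL GFP- cells and 0 lower. On the deposited RPKM values plus 1 the Il11 call in AKVPSL ended (-0.40 on that scale).

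Bhlhe40 showed the converse, with a call in AKVPL alone. Its log2 fold change was -0.11 in AKVPSL (edgeR adjusted p = 0.411) and -0.76 ± 0.11 in AKVPL (edgeR adjusted p = 3.38e-05). In AKVPL the highest GFP+ library, at 336 CPM, was below the lowest GFP- library, at 457 CPM. Smurf1 and Tgif1 were not called in either genotype, with values of 0.04 and 0.17 in AKVPSL and -0.09 and 0.17 in AKVPL. The Tgif1 value in AKVPL was -0.27 with epithelial scaling.

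**Figure D3:**
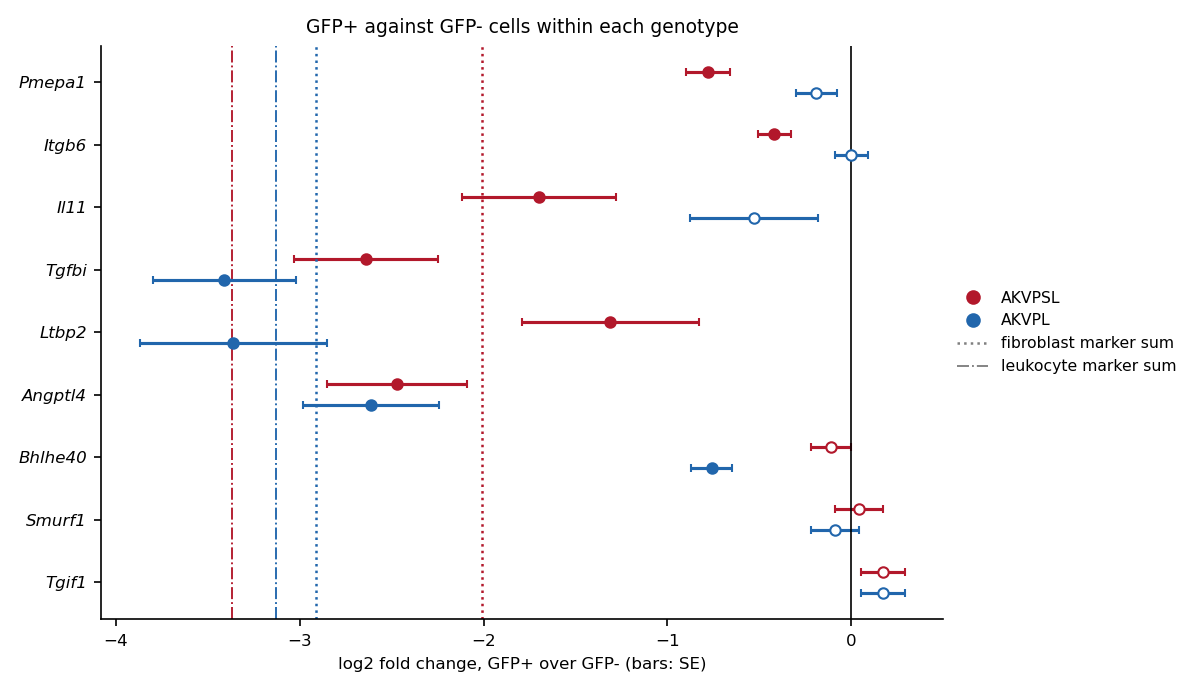
Log2 fold change of GFP+ over GFP- cells for each of the 9 genes, in AKVPSL and AKVPL, with SE bars. Filled points passed the threshold and open points did not. Dotted lines mark the log2 ratio of the mean summed fibroblast markers, -2.01 in AKVPSL and -2.91 in AKVPL, and dash-dotted lines that of the leukocyte markers, -3.37 and -3.13. Tgfbi, Ltbp2 and Angptl4 lie between -3.41 and -1.31, and the other 6 genes between -1.70 and 0.17.

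The difference between the sort effects was tested as an interaction, AKVPSL minus AKVPL. Of the 9 genes 2 were called higher, against 7.01% of all genes, and 2 lower, against 13.7%, or 4 of 9 in either direction against 20.7%. The sort effect on Bhlhe40 was 0.65 ± 0.15 log2 units above that in AKVPL (edgeR adjusted p = 0.00682) and that on Ltbp2 2.05 ± 0.67 above (edgeR adjusted p = 0.0451). For Pmepa1 the difference was -0.59 ± 0.16 (edgeR adjusted p = 0.0158), and for Itgb6 it was -0.41 ± 0.13 (edgeR adjusted p = 0.0323). For Il11 and Tgfbi the differences were -1.17 ± 0.55 and 0.77 and were not called (edgeR adjusted p = 0.135 and 0.307). With the replicate number as a block both were called, at -1.19 for Il11 (edgeR adjusted p = 0.0408) and 0.89 for Tgfbi (edgeR adjusted p = 0.0247). Whether the replicate numbers pair libraries of the sorts was not settled by the data in either genotype, and the labels state no pairing.

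These calls differed in how far they held. That for Bhlhe40 stayed past the threshold under every setting run, between 0.57 and 0.72 with single libraries left out and 1.08 with epithelial scaling. That for Pmepa1 ended with epithelial scaling (-0.17), where the all-gene median shifted by 0.43. It also ended without the 2 GFP+ libraries with the highest fibroblast sums of their groups (-0.55, edgeR adjusted p = 0.0502). That for Itgb6 had no direction with epithelial scaling (0.02) and ended under 7 other settings and without any 1 of 8 libraries. That for Ltbp2 ended with no low-count filter, without any 1 of 13 libraries, and without the same 2 GFP+ libraries (1.55). Without AKVPSL GFP+ replicate 4 it was 1.40.

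Levels can be set against each other between genes per length of transcript, from the RPKM values the authors deposited. In AKVPSL GFP+ cells the 3 regulators led, with Bhlhe40 at 133 ± 13.8, Tgif1 at 84.2 ± 6.78 and Smurf1 at 30.4 ± 4.44 RPKM (SD, n = 4), and their ranges did not overlap. Pmepa1 at 9.35 ± 0.532, Tgfbi at 5.79 ± 2.10 and Itgb6 at 4.00 ± 0.276 RPKM came next, and the ranges of Tgfbi and Itgb6 overlapped. Ltbp2 at 1.36 ± 1.07 and Angptl4 at 1.08 ± 0.714 RPKM overlapped as well, and Il11 was lowest at 0.171 ± 0.0617 RPKM. In AKVPL GFP+ cells Pmepa1 stood at 33.8 ± 2.91 RPKM, above Smurf1 at 22.4 ± 1.66 RPKM, with ranges of 30.0 to 37.0 and 20.9 to 24.1 RPKM. Bhlhe40 and Tgif1 did not differ beyond their spread there, at 92.1 ± 6.28 and 89.5 ± 9.67 RPKM. In AKVPL GFP- cells Bhlhe40 at 167 ± 22.2 and Tgfbi at 132 ± 27.3 RPKM led the order with overlapping ranges.

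Across groups, Pmepa1 was ordered AKVPSL GFP+, AKVPSL GFP-, AKVPL GFP+ and AKVPL GFP- on the CPM scale, low to high, with overlap between the 2 AKVPL groups. Itgb6 followed the same order of groups except that the AKVPL means were equal within their spread, at 53.4 ± 4.75 CPM for GFP+ against 53.5 ± 3.87 CPM for GFP- cells. For Tgfbi the order from low to high was AKVPSL GFP+, AKVPL GFP+, AKVPSL GFP- and AKVPL GFP-, and the 2 GFP+ groups overlapped. Smurf1 and Tgif1 spanned less than the other genes, with group means between 143 and 194 CPM for Smurf1 and between 298 and 355 CPM for Tgif1.

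Within groups, the 9 genes varied to different degrees and along different lines. The coefficient of variation over 4 libraries was at most 15.4% for Pmepa1 and 8.89% for Itgb6, whereas it reached 78.8% for Ltbp2 and 66.3% for Angptl4 in AKVPSL GFP+ cells. After subtraction of the group means, log2 CPM of Ltbp2 and Angptl4 had a Pearson r of 0.90 over the 16 libraries, Tgfbi and Angptl4 0.85, Pmepa1 and Il11 0.77, and Tgfbi and Ltbp2 0.71. Itgb6 had an r of 0.09 with Tgfbi and -0.06 with Ltbp2. These values describe libraries that share their depth and marker content, and Ltbp2 and Angptl4 were highest among AKVPSL GFP+ libraries in replicate 4, the library with the group's highest fibroblast sum. Its leukocyte sum, 272 CPM, was also the highest of the group. Among AKVPSL GFP- libraries, Tgfbi and Angptl4 were highest in replicate 3, which had the highest leukocyte sum (3100 CPM). Ltbp2 was highest there in replicate 4, which had the highest fibroblast sum (3130 CPM).

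**Figure D4:**
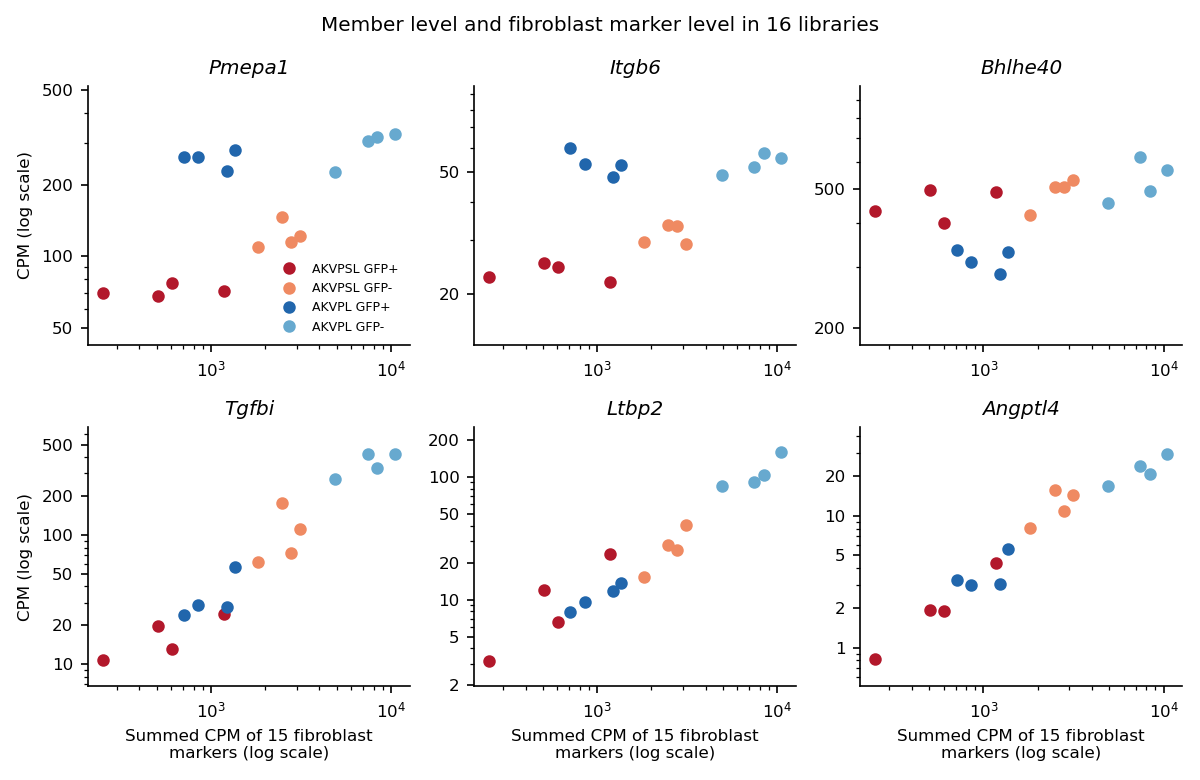
CPM of 6 of the genes against the summed CPM of 15 fibroblast markers in each of the 16 libraries, both on log axes, coloured by group. In the lower row, Tgfbi, Ltbp2 and Angptl4 lie highest where the marker sum is highest, in AKVPL GFP- libraries. The leukocyte marker sum, not shown in the figure, is also highest in those libraries. Of the AKVPSL libraries, GFP+ replicate 4 alone, at 1180 CPM, has a marker sum within the range of an AKVPL group, 709 to 1360 CPM in GFP+ libraries.

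The genes most like each member by the same measure, among genes whose mean log2 CPM was 1 or more, were as follows. Tgfbi was nearest to Ly86 and Ccdc88b (r of 0.98 each), Ltbp2 to Spon1 and Serping1 (0.95 each) and Angptl4 to Mmp14 (0.96) and Axl (0.95). Ly86 encodes a partner of a Toll-like receptor homologue in leukocytes, and Mmp14 a membrane-bound matrix protease. Pmepa1 was nearest to Gpn2 (0.93) and Tmsb4x (0.92), Itgb6 to Sike1 (0.86) and Nras (0.85) and Il11 to Nrg1 (0.88) and Ier3 (0.87). Bhlhe40 was nearest to Ppard (0.94), a nuclear receptor of fatty acids, Smurf1 to Myo1c (0.96) and Tgif1 to Hdac6 and Myc (0.90 each).

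Counting can blur the values of 3 of the genes. In the GENCODE vM21 annotation of GRCm38, Ltbp2 overlaps D030025P21Rik and Bhlhe40 overlaps 0610040F04Rik, each on the opposite strand, and Smurf1 contains Mir7039. The sources used here do not say whether counting used strand, so reads in the shared stretches cannot be told apart. The overlapping genes had 2 to 116, 183 to 709 and 0 to 11 counts per library, beside 128 to 3264 for Ltbp2, 5175 to 17449 for Bhlhe40 and 1906 to 7507 for Smurf1.

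Other genes known to respond to TGF-beta did not move as 1 block. Of 25 such genes, all tested, 12 were called lower and 5 higher in AKVPSL GFP+ against AKVPL GFP+ cells (median log2 fold change -0.50), and 16 lower and 3 higher in GFP- cells (median -0.73). Of all genes tested 28.1% were called lower and 24.9% higher in GFP+ cells, and 30.7% lower and 32.0% higher in GFP- cells, with medians of -0.05 and 0.00. Id1, an inhibitor of helix-loop-helix factors better known as a target of BMP signalling, averaged 5.78 CPM in AKVPSL GFP+ and 103 CPM in AKVPL GFP+ cells, a log2 fold change of -4.14 ± 0.19 (edgeR adjusted p = 3.24e-12), and in GFP- cells the value was -2.69 ± 0.17. Itga5, the fibronectin receptor subunit, averaged 8.13 CPM in AKVPSL GFP+ and 93.3 CPM in AKVPL GFP+ cells (-3.53 ± 0.24), with -2.19 ± 0.22 in GFP- cells. Fibronectin itself, Fn1, fell by 1.18 on the log2 scale in AKVPSL GFP+ and by 2.00 in AKVPSL GFP- cells, relative to AKVPL. Pthlh, a parathyroid hormone-like peptide, went the other way, with 353 CPM in AKVPSL GFP+ against 31.3 CPM in AKVPL GFP+ cells (3.49 ± 0.16, edgeR adjusted p = 4.75e-12), and 336 CPM in AKVPSL GFP- against 16.6 CPM in AKVPL GFP- cells (4.35 ± 0.17).

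Some well-known targets gave mixed calls. Smad7, the inhibitory SMAD, was at -0.25 ± 0.11 in GFP+ cells (edgeR adjusted p = 0.0642) and was called lower in GFP- cells (-0.59 ± 0.11, edgeR adjusted p = 1.43e-04). Cdkn2b, a cyclin-dependent kinase inhibitor, was lower in AKVPSL GFP+ cells (-0.50 ± 0.12, edgeR adjusted p = 0.00175) and higher in AKVPSL GFP- cells (0.64 ± 0.12, edgeR adjusted p = 1.42e-04), and its sort effects differed between the genotypes by -1.14 ± 0.17 (edgeR adjusted p = 2.16e-04). The GFP- call of Cdkn2b ended with epithelial scaling (0.20).

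**Figure D5:**
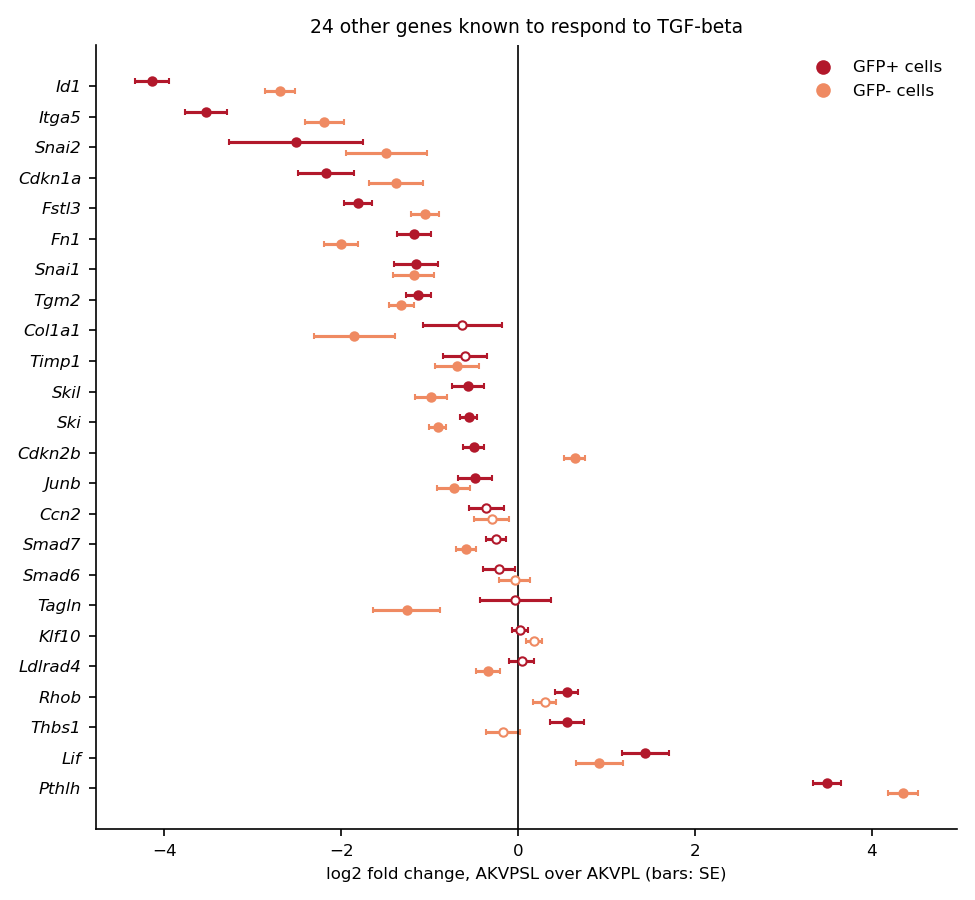
Log2 fold change of AKVPSL over AKVPL for 24 of the 25 other genes known to respond to TGF-beta, in GFP+ and GFP- cells, with SE bars and genes ordered by the GFP+ value. Filled points passed the threshold and open points did not. The values span -4.14 (Id1) to 3.49 (Pthlh) in GFP+ cells.

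Genes that make, release and transmit the signal were counted the same way, AKVPSL against AKVPL, and with at most 9 genes a list several counts lie near the shares of all genes just given. Of 9 ligands 7 were tested, and 4 were lower and 2 higher in GFP+ cells, 5 lower and 1 higher in GFP- cells. Tgfb2 averaged 0.698 CPM in AKVPSL GFP+ and 3.69 CPM in AKVPL GFP+ cells (-2.44 ± 0.34, edgeR adjusted p = 6.40e-06), whereas Tgfb3 averaged 114 CPM in AKVPSL GFP+ and 57.0 CPM in AKVPL GFP+ cells (1.0 ± 0.11, edgeR adjusted p = 2.17e-07). Tgfb1 was at 0.36 ± 0.17 in GFP+ cells (edgeR adjusted p = 0.0738) and lower in AKVPSL GFP- cells (-0.56 ± 0.16, edgeR adjusted p = 0.00696). Of 8 receptors 2 were lower and 4 higher in GFP+ cells, 4 lower and 2 higher in GFP- cells. Tgfbr1 was at -0.30 ± 0.10 in GFP+ and -1.31 ± 0.11 in GFP- cells, and Tgfbr2 at 0.42 ± 0.11 in GFP+ and -0.01 in GFP- cells. Of 5 SMAD genes 2 were higher and 0 lower in GFP+ cells (2 and 1 with library totals), 2 higher and 1 lower in GFP- cells. In GFP+ cells Smad2 was at 0.59 ± 0.09 and Smad4 at 0.70 ± 0.11.

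Of 9 genes that store or activate latent TGF-beta, 4 were lower and 2 higher in GFP+ cells, 7 lower and 1 higher in GFP- cells. Ltbp1 and Ltbp4, which tether the latent complex to the matrix, had log2 fold changes of -2.31 ± 0.33 and -2.27 ± 0.15 in GFP+ cells and -1.83 ± 0.33 and -1.69 ± 0.15 in GFP- cells. Itgb8, whose integrin also releases TGF-beta as that of Itgb6 does, was at -0.65 ± 0.22 in GFP+ and -1.64 ± 0.24 in GFP- cells. Of 9 inhibitors 4 were lower and 1 higher in GFP+ cells, 7 lower and 1 higher in GFP- cells. Among them, Skil and Ski, corepressors of the SMADs, were at -0.57 ± 0.18 and -0.56 ± 0.10 in GFP+ cells and -0.98 ± 0.18 and -0.91 ± 0.10 in GFP- cells. The Skil call in GFP+ cells ended without AKVPL GFP+ replicate 2 (-0.43) or replicate 3 (-0.42). Nedd4l, a ubiquitin ligase like Smurf1, was higher in both, at 0.81 ± 0.08 in GFP+ and 0.94 ± 0.08 in GFP- cells. With epithelial scaling the counts in GFP- cells were 5 lower and 0 higher for ligands, 5 and 1 for receptors, 2 and 1 for SMADs, 8 lower and 0 higher for activators and 8 and 1 for inhibitors, and 21 of the 25 other targets were lower and 1 higher. Under that scaling 51.1% of all genes were called lower in GFP- cells and 15.6% higher. A few genes stand in more than 1 of these lists. Of the other targets, Col1a1 is also counted among the fibroblast markers and Tagln among the smooth muscle markers. The marker sums above moved with the GFP- counts.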

How the data were processed

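RNA sequencing was deposited for 16 libraries. Per the file headers, the authors' count is the number of reads aligned uniquely to a gene model, and the second deposited value is an RPKM adjusted by a size factor. The submitters' processing notes name GSNAP and GRCm38. Each file held 36528 NCBI Gene IDs, of which 31049 (85.0%) matched symbols in a RefSeq table. Groups came from the sample titles.

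Counts were tested with edgeR 4.0.16 in R 4.3.3 (filterByExpr, TMM factors 0.936 to 1.086, 1 mean per group, robust quasi-likelihood fit with 12 residual degrees of freedom and a biological coefficient of variation of 0.182), with Benjamini-Hochberg adjustment over 18072 genes and a threshold of 0.05. The SE, back-calculated from the fold change and F, is approximate. The test was checked on simulated data with known changes in AKVPSL GFP+ alone, as many up as down. That check cannot judge the choice of scaling. All 9 genes passed the filter. Alternatives used DESeq2 1.42.0, limma 3.58.1 on log2 of RPKM plus 1 or 0.1, other scalings and filters, a replicate block, and fits with libraries left out. Chi-square per degree of freedom between the 24 pairs of replicates was 9.7 to 80, well above sampling noise, so none was treated as a repeat.

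Deviations of same-numbered libraries of the sorts had an r of 0.50, 0.27, 0.44 and 0.14 in AKVPL and 0.59, 0.44, 0.01 and 0.32 in AKVPSL. The GFP+ library was not most like the GFP- library of its own number for AKVPL replicate 4 and AKVPSL replicates 3 and 4. The labels do not state a pairing, and these values do not settle it in either genotype.

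The 9 genes and the other lists were chosen with earlier results of these data known. Named genes are the 9, up to 4 called genes from each other pathway list per comparison, with Smad7, Cdkn2b, Tgfb1 and Tgfbr2 and those set beside them added after their values were seen, and for each of the 9 its most similar genes. In the list of other targets, 1 gene is counted and is not reported here.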

Additional observations from a re-analysis of the deposited data

Results flagged for a closer look

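Of 36 groups of 4 libraries, 2 held a library far from the others, where chance flags about 1 in 20 groups. Pmepa1 was at 227 CPM in AKVPL GFP- replicate 4, the library with the fewest counts, while the other 3 lay between 306 and 325 CPM. Angptl4 was at 5.59 CPM in AKVPL GFP+ replicate 3, the library with the highest fibroblast marker sum of its group, while the other 3 lay between 3.00 and 3.28 CPM.

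The effect of the sort, AKVPSL minus AKVPL, differed between the genotypes by the interaction test for 4 of the 9 genes, where 20.7% of all genes were called. The differences in log2 fold change were -0.59 for Pmepa1 (edgeR adjusted p = 0.0158), 2.05 for Ltbp2 (edgeR adjusted p = 0.0451), -0.41 for Itgb6 (edgeR adjusted p = 0.0323) and 0.65 for Bhlhe40 (edgeR adjusted p = 0.00682). The Bhlhe40 call held under every setting run. The Ltbp2 call was lost without any 1 of 13 libraries, and the Itgb6 call without any 1 of 8 libraries and with epithelial scaling (0.02). The Pmepa1 call was lost with epithelial scaling (-0.17) and without the 2 GFP+ libraries with the highest fibroblast sums of their groups (-0.55).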

How the results depend on the processing

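In GFP+ cells the genotype calls of Pmepa1, Itgb6, Il11, Bhlhe40 and Smurf1 held under every setting run, leaving out single libraries included. On the RPKM plus 1 scale, which understates low genes, Il11 was at -0.75. With epithelial scaling the sort in AKVPL called 8 of the 9 genes lower in place of 4, and 40.3% of all genes in place of 16.5%. The 1 gene called higher between genotypes in GFP- cells, Smurf1, gave 0 under every other setting except the replicate block, and 0 to 1 with single libraries left out. For the difference of sort effects, 2 genes were called higher with TMM and 4 with epithelial scaling (where 27.9% of all genes were). The count called higher was 1 with no low-count filter. It was also 1 without the 2 GFP+ libraries with the highest fibroblast sums of their groups (chosen after the values were seen). With single libraries left out it was 1 to 2. The count called lower, 2 with TMM, was 1 with DESeq2 size factors, library totals, no low-count filter, either RPKM scale or the DESeq2 Wald test, 0 with epithelial scaling and without the same 2 GFP+ libraries, and 1 to 2 with single libraries left out.

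Directions turned for values near 0. Tgif1 was at -0.27 for the sort in AKVPL with epithelial scaling. Smurf1 was at -0.14 between genotypes in GFP- cells with epithelial scaling. Ltbp2 between genotypes in GFP+ cells was at -0.06 and -0.22 with RPKM plus 1 and plus 0.1, -0.12 with the replicate block and -0.46 without the 2 GFP+ libraries. For the difference of sort effects, Itgb6 was at 0.02 with epithelial scaling, Angptl4 at -0.13 without the 2 GFP+ libraries, and Tgif1, 0.00 with TMM, between 0.00 and 0.43 (0.09 with DESeq2 size factors and Wald, 0.06 with totals, 0.07 with no filter, 0.01 with a minimum of 1 CPM, 0.10 with RPKM). With single libraries left out, the ranges that crossed 0 were -0.07 to 0.04 for Itgb6 (sort in AKVPL), -0.08 to 0.19 for Smurf1 (sort in AKVPSL), -0.61 to 0.35 for Ltbp2 (genotype in GFP+), -0.39 to 0.43 for Angptl4 and -0.08 to 0.11 for Tgif1 (difference). The causes were not tested.

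The replicate block changed no call of the 9 genes in the 4 comparisons between groups. For the difference of sort effects it added Tgfbi (0.89, edgeR adjusted p = 0.0247) and Il11 (-1.19, edgeR adjusted p = 0.0408), with 3 genes higher and 3 lower. Same-numbered libraries correlated at 0.59, 0.44, 0.01 and 0.32 between sorts in AKVPSL. Between genotypes the values were 0.37, 0.00, 0.13 and 0.20 in GFP+ cells and 0.23, -0.15, 0.28 and 0.40 in GFP- cells. These values do not settle whether the numbers pair libraries.

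The share of calls over all genes that were higher was, for the sort in AKVPL, 57.8% (TMM), 42.1% (DESeq2 size factors), 44.9% (totals) and 7.33% (epithelial). Between genotypes in GFP- cells it was 51.1% with TMM and 23.4% with epithelial scaling, and for the difference 33.8%, 49.2%, 44.2% and 89.9% in the same order of scalings. Il11, with 9 to 107 reads per library, is the gene that depth limits most.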
